A study of Mus with 9 samples.

Results

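The mitosis and spindle genes described here are 54 mouse genes named for their roles in mitotic entry, spindle assembly, chromosome segregation and cytokinesis, picked by gene symbol from a count table of 54532 genes. All 54 were found, and all 54 were among the 15660 genes with enough reads to test. Their levels were measured by RNA sequencing of bone marrow cells in 9 libraries, 3 in each of 3 groups. Donor cells in every group were fetal liver cells of embryonic day 12.5 that carried a conditional AML1-ETO knock-in, a fusion gene of acute myeloid leukaemia, tagged with mCherry. They were infected with the retrovirus MSCV-IRES-EGFP, which was empty in Vec (replicates 1, 2 and 4), carried wild-type cyclin D2 in CCND2wt (replicates 2, 3 and 4) and carried cyclin D2 with the Thr280Ala substitution in CCND2mut (replicates 1, 2 and 3). Cells positive for mCherry and GFP were injected with supportive cells into lethally irradiated C57BL/6 mice. The host and the supportive cells can therefore also contribute RNA to the bone marrow, the virus drives expression in whichever cells it entered, and the controls carry AML1-ETO as well. The labels do not state that the libraries of a group came from separate mice, so the p-values measure the spread between these libraries.

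Mitosis is started by cyclin B bound to the kinase CDK1. Spindle microtubules then attach to chromosomes through kinetochores, and the spindle checkpoint holds back the anaphase promoting complex until attachment is complete. Most of the genes involved are switched on together late in the cell cycle by the MuvB complex with MYBL2 and FOXM1, while cyclin D2 acts earlier, with CDK4 or CDK6, on the retinoblastoma protein. Threonine 280 of cyclin D2 is a phosphorylation site linked to its degradation.

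Total counts ranged from 15043755 to 17593634 per library. Levels of a gene across libraries are given in CPM, its counts scaled to the library's size with trimmed mean of M values factors, and levels between genes in TPM, which also divides by gene length. Mouse Ccnd2 was at 76.2, 79.0 and 86.2 CPM in Vec, at 7.30, 9.29 and 11.1 CPM in CCND2wt and at 12.6, 58.2 and 51.1 CPM in CCND2mut. The Ccnd2 row was thus lower in the libraries labelled as carrying the virus-borne gene, and the species of the cloned sequence is not given in the sources used here, so this row does not check the labels. General blood-cell markers were detected in all 9 libraries, 7 of 7 in each. Vec 1 stood apart within its group, with summed maturing-neutrophil markers at 15838 CPM against 619 and 728 CPM in Vec 2 and Vec 4, erythroid markers at 17223 CPM against 145 and 3854 CPM, and B-cell markers at 1284 CPM against 97.4 and 157 CPM. The 3 CCND2wt libraries lay nearest to each other, with a chi-square per gene of 6.998 to 17.69 between pairs, against 53.3 to 148.3 in the other groups.

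**Figure D1:**
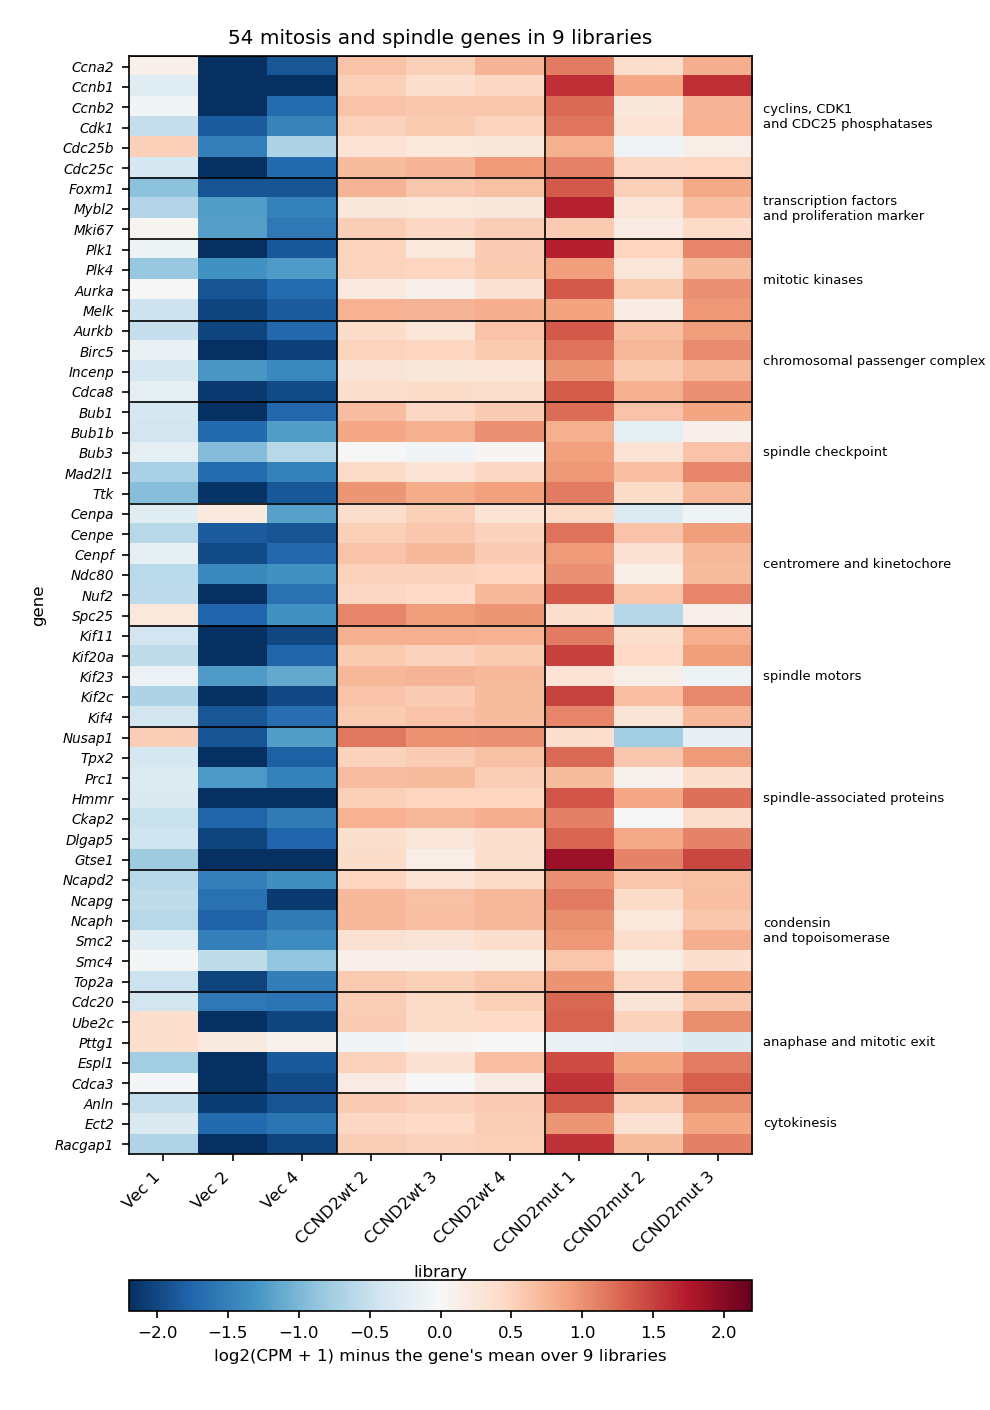
Level of the 54 genes (rows, grouped by role) in the 9 libraries (columns), as log2(CPM + 1) minus the gene's mean over the libraries, with the deepest blue also standing for values below the end of the scale. Vec 2 and Vec 4 are blue for nearly all genes, Vec 1 is paler, the 3 CCND2wt columns look alike, and in CCND2mut the first column is the reddest and the second the palest.

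The 54 genes took a larger share of the reads in both cyclin D2 groups than in Vec. Their summed level was 2143, 910 and 994 TPM in Vec 1, 2 and 4, it was 4424, 4098 and 4502 TPM in CCND2wt 2, 3 and 4, and it was 5064, 2891 and 4435 TPM in CCND2mut 1, 2 and 3. All 6 cyclin D2 libraries lay above all 3 Vec libraries, and the 2 cyclin D2 groups overlapped. In CPM the sums were 3664.8, 1553.3 and 1548.5 in Vec, 6356.5, 6121.7 and 6381 in CCND2wt and 9285.5, 5910.9 and 7406.3 in CCND2mut. The same held in CPM, but where CCND2mut stood relative to CCND2wt depended on the unit. In bulk RNA, more dividing cells and more mitotic RNA per cell cannot be told apart.

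Between CCND2wt and Vec, 37 of the 54 genes were higher at an adjusted p under 0.05 (edgeR quasi-likelihood test, Benjamini-Hochberg over all tested genes), against 9.71% of all tested genes (18.8% were called in either direction). None was called lower by edgeR, DESeq2 or limma-voom, against 9.05%, and at an unadjusted p under 0.05 edgeR gave 49 genes, all higher. The median log2 fold change was 1.71 over the 54 genes and -0.04 over all tested genes. The groups did not overlap for 52 genes in the higher direction, against 24.6% of all tested genes, and for 1 gene in the lower direction, against 23.7%. The count of called genes depended on single libraries. It was 52 without Vec 1, 18 without Vec 4, 14 without CCND2wt 2, 16 without CCND2wt 3 and 13 without CCND2wt 4. With the CCND2wt libraries summed to 1 sample, which is then assumed to vary like the other groups, no gene was called by edgeR and 37 had an unadjusted p under 0.05.

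Between CCND2mut and Vec, 48 of the 54 genes were higher, against 24.9% of all tested genes, and Pttg1 alone was lower, against 26.9% (51.8% were called in either direction). The median log2 fold change was 1.996 over the 54 genes and -0.03 over all tested genes. The groups did not overlap for 49 genes in the higher direction, against 27.4% of all tested genes, and for Pttg1 in the lower direction, against 29.2%. Without Vec 1, 52 genes were higher and none was called lower by edgeR. Both comparisons share the Vec libraries, so they are not independent of each other.

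**Figure D2:**
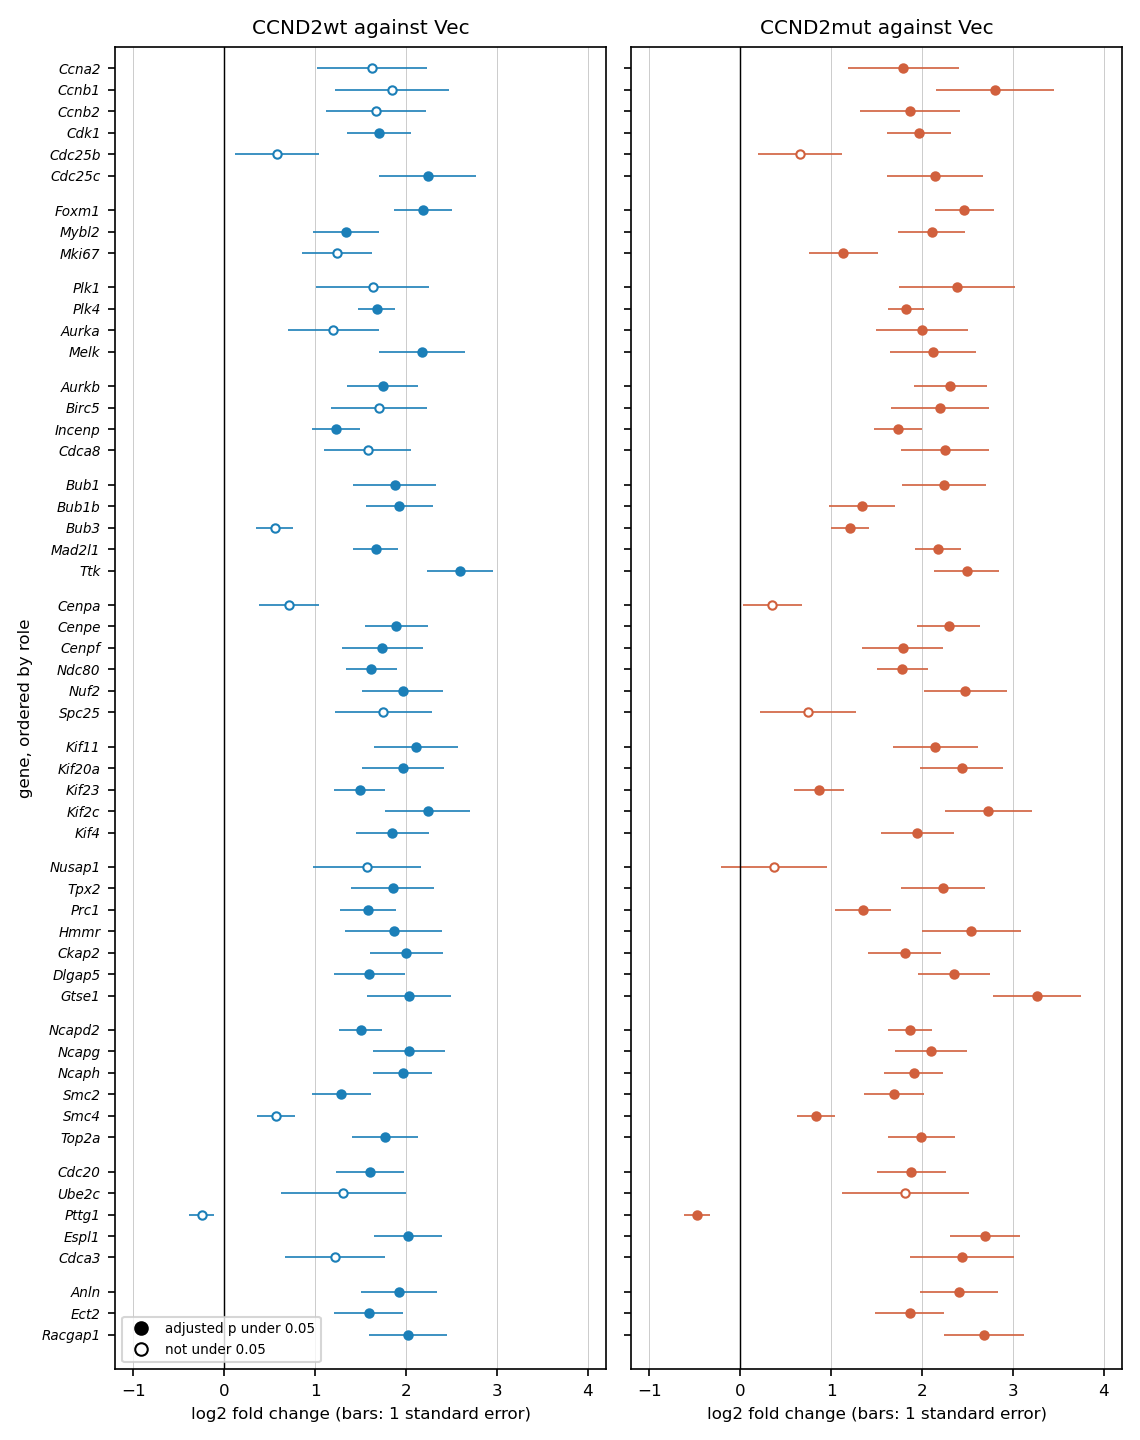
Log2 fold change of each gene against Vec (horizontal axis, bars of 1 standard error), with CCND2wt on the left and CCND2mut on the right and genes ordered by role. Filled points have an adjusted p under 0.05, which holds for 37 genes on the left and for 49 on the right, and only Pttg1 lies below 0.

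Marker genes of several blood cell types moved with the groups as well. Of 13 maturing-neutrophil markers, summed levels were 619 to 15838 CPM in Vec, 157 to 279 CPM in CCND2wt and 6297 to 22176 CPM in CCND2mut. Of 10 mast cell and basophil markers, summed levels were 7287 to 10176 CPM in Vec, 16877 to 17674 CPM in CCND2wt and 1700.3 to 15550.0 CPM in CCND2mut, with Tpsab1 at 0 in Vec 2. Erythroid markers, 11 in number, summed to 145 to 17223 CPM in Vec, 1090 to 1308 CPM in CCND2wt and 35.65 to 303 CPM in CCND2mut. Promyelocyte markers, 6 in number, summed to 1360 to 1900 CPM in Vec, 2503 to 2687 CPM in CCND2wt and 5043 to 10562 CPM in CCND2mut. In CCND2wt that sum was led by Ctsg, the gene of cathepsin G, which rose by 1.85 ± 0.25 on the log2 scale (edgeR adjusted p = 0.00266), whereas 4 of the 6 markers were below their Vec level, 1 of them called lower, and the median of the 6 was -2.35. B-cell markers summed to 97.4 to 1284 CPM in Vec, 33.4 to 38.9 CPM in CCND2wt and 23.5 to 80.8 CPM in CCND2mut, and monocyte and macrophage markers to 46.0 to 242 CPM, 42.1 to 44.1 CPM and 95.4 to 178 CPM. The 7 general blood-cell markers summed to 2560 to 2946 CPM, 1558 to 1610 CPM and 2779 to 4255 CPM in the same order. Stem and progenitor markers, 9 in number, summed to 2154 to 2722 CPM, 2464 to 2593 CPM and 219 to 626 CPM in the same order, with Mecom at 0 in 3 libraries and Hoxa9 at 0 in CCND2mut 3. Over all tested genes, 9.71% were called higher and 9.05% lower in CCND2wt against Vec, and 24.9% and 26.9% in CCND2mut. Against Vec, CCND2mut had 8 of the 9 stem and progenitor markers called lower and 6 of 6 promyelocyte markers called higher (edgeR). In CCND2wt, 5 of 10 mast cell and basophil markers were called higher (edgeR). Called lower in CCND2wt were 4 of 13 neutrophil, 4 of 9 tested monocyte, 6 of 10 tested B-cell and 4 of 7 general blood-cell markers, and all 10 tested B-cell markers were lower in CCND2mut (edgeR). Their part in the levels of the mitosis genes was not tested.

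Of the 6 cyclin, CDK1 and CDC25 genes, which start mitosis, Cdk1 and Cdc25c were called higher in CCND2wt and all but Cdc25b in CCND2mut. For this role and those below, 9.71% of all tested genes were called higher in CCND2wt against Vec and 24.9% in CCND2mut. Counts in the 2 comparisons therefore do not have the same background. The calls of Cdk1 and Cdc25c in CCND2wt were lost without any 1 CCND2wt library, and that of Cdc25c also without Vec 4. Of genes named below, the CCND2wt calls of Mybl2, Aurkb, Incenp, Nuf2, Gtse1, Cdc20, Anln, Ect2 and Racgap1 were likewise lost without any 1 CCND2wt library. All of these but the call of Incenp were also lost without Vec 4. The call of Kif2c was lost without CCND2wt 2 or CCND2wt 4. In CCND2mut the call of Ccna2 was lost without any library other than Vec 1 and CCND2mut 2 (edgeR adjusted p = 0.0562 to 0.106). That of Ccnb2 was lost without Vec 4 or CCND2mut 1. Cdk1, the kinase whose activity triggers mitosis, was at 66.2, 25.8 and 33.5 CPM in Vec, at 135, 141 and 133 CPM in CCND2wt and at 214, 116 and 162 CPM in CCND2mut. All 6 cyclin D2 libraries were above every Vec library. The log2 fold change of Cdk1 against Vec was 1.70 ± 0.35 (SE) in CCND2wt (edgeR adjusted p = 0.0143) and 1.97 ± 0.35 in CCND2mut (edgeR adjusted p = 0.0022). Cdc25c, a phosphatase that activates CDK1, was at 9.17, 1.77 and 3.08 CPM in Vec, at 20.5, 21.4 and 24.6 CPM in CCND2wt and at 27.3, 17.3 and 17.5 CPM in CCND2mut, again with no overlap with Vec. It rose 4.72-fold in CCND2wt (edgeR adjusted p = 0.0234) and 4.41-fold in CCND2mut (edgeR adjusted p = 0.00985).

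Ccnb1, the cyclin B1 gene, stood highest in CCND2mut. Its levels were 50.8, 8.01 and 11.0 CPM in Vec, 88.6, 79.4 and 83.9 CPM in CCND2wt and 189, 111 and 188 CPM in CCND2mut. The 3 groups did not overlap and ran in that order. The rise in CCND2mut was 6.97-fold (log2 2.80 ± 0.65, edgeR adjusted p = 0.00711), whereas the 3.60-fold difference in CCND2wt did not pass the threshold with Vec 1 (edgeR adjusted p = 0.0721) and did without it (edgeR adjusted p = 0.000503). Cdc25b, another CDC25 phosphatase, was at 88.8, 21.1 and 38.3 CPM in Vec, at 75.8, 72.8 and 73.6 CPM in CCND2wt and at 107, 58.6 and 67.9 CPM in CCND2mut. Its values overlapped between all groups, and no comparison passed the threshold with Vec 1 (edgeR adjusted p = 0.404, 0.261 and 0.91). Without Vec 1, Cdc25b was called higher against Vec in CCND2wt (log2 1.34 ± 0.31, edgeR adjusted p = 0.0238). The same held in CCND2mut (log2 1.38 ± 0.31, edgeR adjusted p = 0.00777).

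Both transcription factor genes of the list rose in both cyclin D2 groups. Foxm1, a transcription factor of the late cell cycle, was at 40.0, 19.6 and 19.5 CPM in Vec, at 127, 115 and 119 CPM in CCND2wt and at 193, 109 and 135 CPM in CCND2mut. The highest Vec library was well below the lowest cyclin D2 library. Foxm1 rose 4.56-fold in CCND2wt (log2 2.19 ± 0.32, edgeR adjusted p = 0.00384) and 5.53-fold in CCND2mut (log2 2.47 ± 0.32, edgeR adjusted p = 0.000464). Mybl2, which works with MuvB ahead of FOXM1, was at 58.8, 39.1 and 32.5 CPM in Vec, at 111, 109 and 110.5 CPM in CCND2wt and at 303, 111 and 147 CPM in CCND2mut. CCND2mut 1 was the highest library there, and CCND2mut 2 was level with CCND2wt. Mybl2 rose 2.53-fold in CCND2wt (edgeR adjusted p = 0.0382) and 4.30-fold in CCND2mut (edgeR adjusted p = 0.00207). Mki67, the gene of the Ki-67 antigen used to mark proliferating cells, rose 2.19-fold in CCND2mut (edgeR adjusted p = 0.0343) and was 2.36-fold higher in CCND2wt without passing the threshold (edgeR adjusted p = 0.0539). Its call in CCND2mut was lost when any library other than Vec 1 was left out (log2 0.84 to 1.22, edgeR adjusted p = 0.0505 to 0.108).

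Of the 4 mitotic kinase genes, 2 were called higher in CCND2wt and all 4 in CCND2mut. Plk4, the kinase that controls centriole duplication, had the steadiest Vec values, at 25.5, 17.7 and 18.7 CPM, with 65.0, 64.3 and 68.7 CPM in CCND2wt and 88.3, 55.3 and 75.6 CPM in CCND2mut. Every cyclin D2 library lay above the highest Vec value by a clear gap. Plk4 had the smallest adjusted p of the 54 genes in both comparisons, with a log2 fold change of 1.68 ± 0.20 in CCND2wt (edgeR adjusted p = 0.00173) and 1.82 ± 0.20 in CCND2mut (edgeR adjusted p = 0.000185). Aurka, the spindle pole kinase aurora A, was at 29.7, 7.20 and 8.40 CPM in Vec, at 34.4, 32.2 and 37.6 CPM in CCND2wt and at 76.7, 44.3 and 60.6 CPM in CCND2mut. Its groups did not overlap in any comparison, and only the rise in CCND2mut against Vec passed the threshold (log2 2.0 ± 0.51, edgeR adjusted p = 0.0113).

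The chromosomal passenger complex, which corrects faulty attachments and later guides cytokinesis, is made of Aurkb, Birc5, Incenp and Cdca8. All 4 genes were called higher in CCND2mut against Vec, and Aurkb and Incenp in CCND2wt. Incenp, its scaffold, was at 101, 53.4 and 48.5 CPM in Vec, at 161, 157 and 158 CPM in CCND2wt and at 259, 196 and 220 CPM in CCND2mut. The 3 groups did not overlap and stood in that order. Its log2 fold change was 1.23 ± 0.26 in CCND2wt (edgeR adjusted p = 0.0152) and 1.74 ± 0.27 in CCND2mut (edgeR adjusted p = 0.00091). The 4 genes took 9.36% to 9.71% of the summed TPM of the 54 genes in CCND2wt and 10.6% to 12.2% in CCND2mut.

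In the spindle checkpoint, 4 of 5 genes were called higher in CCND2wt and all 5 in CCND2mut, against 9.71% and 24.9% of all tested genes. Ttk, the kinase MPS1 that starts checkpoint signalling, was at 11.8, 4.48 and 5.77 CPM in Vec, at 46.9, 42.0 and 44.8 CPM in CCND2wt and at 53.3, 31.4 and 39.9 CPM in CCND2mut. This was the largest fold change of the 54 genes in CCND2wt, 6.04-fold (log2 2.59 ± 0.36, edgeR adjusted p = 0.0031), and it was 5.62-fold in CCND2mut (edgeR adjusted p = 0.000709). Mad2l1, the checkpoint protein MAD2, rose 3.18-fold in CCND2wt (edgeR adjusted p = 0.00401) and 4.52-fold in CCND2mut (edgeR adjusted p = 0.000246). Bub3, a checkpoint protein that docks BUB1 on kinetochores, was at 79.4, 47.3 and 60.6 CPM in Vec, at 92.6, 88.4 and 94.2 CPM in CCND2wt and at 174, 115 and 143 CPM in CCND2mut. The 3 groups did not overlap. Bub3 rose 2.31-fold in CCND2mut (edgeR adjusted p = 0.00156), and its 1.47-fold difference in CCND2wt did not pass the threshold (edgeR adjusted p = 0.09).

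Of 6 centromere and kinetochore genes, 4 were called higher in each comparison with Vec. Cenpe, a kinesin that moves chromosomes to the spindle equator, was at 49.4, 20.6 and 19.7 CPM in Vec, at 110.3, 115 and 109 CPM in CCND2wt and at 176, 118 and 146 CPM in CCND2mut. It rose 3.72-fold in CCND2wt (edgeR adjusted p = 0.00912) and 4.89-fold in CCND2mut (edgeR adjusted p = 0.000986). Cenpa, the histone H3 variant of centromeres, was at 112, 156 and 58.3 CPM in Vec, at 176, 194 and 165 CPM in CCND2wt and at 181, 110 and 127 CPM in CCND2mut. Vec 2 was the highest Vec library for Cenpa and for none of the other 53 genes, and neither comparison passed the threshold (edgeR adjusted p = 0.16 and 0.392).

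The Ndc80 complex, which ties kinetochores to microtubules, has 3 of its subunits among the 54 genes. Ndc80 rose 3.07-fold in CCND2wt (edgeR adjusted p = 0.00691) and 3.44-fold in CCND2mut (edgeR adjusted p = 0.00104). Nuf2, its partner subunit, rose 3.90-fold (edgeR adjusted p = 0.02) and 5.57-fold (edgeR adjusted p = 0.00245). Spc25 differed from both. It was at 22.9, 5.03 and 7.05 CPM in Vec, at 41.8, 37.4 and 38.7 CPM in CCND2wt and at 25.6, 12.2 and 20.9 CPM in CCND2mut, so CCND2mut lay below CCND2wt in every library and overlapped Vec. Spc25 was not called in CCND2mut against Vec with Vec 1 (edgeR adjusted p = 0.264). Without Vec 1 it was called higher there (log2 1.69 ± 0.31, edgeR adjusted p = 0.00308). Per length, the mean level of Spc25 was 43.0 ± 3.1 TPM (SD, n = 3) in CCND2wt, above Nuf2 at 28.1 ± 3.6 and Ndc80 at 25.8 ± 0.37 TPM. In CCND2mut it was 16.6 ± 6.4 TPM, the lowest level of the 54 genes, with Nuf2 at 31.0 ± 8.9 and Ndc80 at 22.4 ± 7.3 TPM.

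All 5 spindle motor genes rose in both comparisons. Kif2c, a kinesin that takes microtubules apart at centromeres, was at 17.4, 4.41 and 6.41 CPM in Vec, at 44.2, 42.5 and 46.9 CPM in CCND2wt and at 81.8, 45.8 and 60.2 CPM in CCND2mut. It rose 4.72-fold in CCND2wt (edgeR adjusted p = 0.015) and 6.64-fold in CCND2mut (edgeR adjusted p = 0.00186). Kif23, the MKLP1 motor of the central spindle, was at 80.9, 37.2 and 40.3 CPM in Vec, at 148, 150 and 147 CPM in CCND2wt and at 110, 97.1 and 82.7 CPM in CCND2mut. For Kif23 the 3 groups did not overlap, and CCND2mut lay between Vec and CCND2wt. Its rise against Vec was 2.81-fold in CCND2wt (edgeR adjusted p = 0.00997) and 1.83-fold in CCND2mut (edgeR adjusted p = 0.0284). The call in CCND2mut was lost without Vec 2, Vec 4, CCND2mut 1 or CCND2mut 2 (log2 0.66 to 0.85, edgeR adjusted p = 0.0615 to 0.092).

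Among the 7 other spindle proteins, 6 were called higher in each comparison. Gtse1, which binds microtubules and acts in G2 and mitosis, showed the largest fold change of the 54 genes in CCND2mut. It was at 15.6, 4.35 and 5.13 CPM in Vec, at 36.5, 30.6 and 36.2 CPM in CCND2wt and at 104, 59.9 and 78.0 CPM in CCND2mut, with no overlap between any groups. Gtse1 rose 4.10-fold in CCND2wt (log2 2.04 ± 0.46, edgeR adjusted p = 0.0197) and 9.61-fold in CCND2mut (log2 3.26 ± 0.48, edgeR adjusted p = 0.000831). Nusap1, which bundles spindle microtubules, was at 57.8, 9.91 and 16.3 CPM in Vec, at 89.4, 79.3 and 80.6 CPM in CCND2wt and at 51.2, 23.2 and 34.7 CPM in CCND2mut. CCND2mut lay below every CCND2wt library and within the range of Vec, and its fold change against Vec was 1.30 (edgeR adjusted p = 0.612). This depended on Vec 1, the highest Vec library. Without Vec 1, Nusap1 was called higher in CCND2mut against Vec (log2 1.46 ± 0.34, edgeR adjusted p = 0.00859). Prc1, which cross-links antiparallel microtubules in the central spindle, rose by 1.59 ± 0.31 on the log2 scale in CCND2wt (edgeR adjusted p = 0.0114) and by 1.35 ± 0.31 in CCND2mut (edgeR adjusted p = 0.00659).

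Condensin and topoisomerase genes, which compact and untangle chromosomes, were called higher in 5 of 6 cases in CCND2wt and in 6 of 6 in CCND2mut. Ncapd2, a condensin I subunit, was at 186, 99.4 and 109.8 CPM in Vec, at 394, 350.4 and 375 CPM in CCND2wt and at 570.4, 433 and 441 CPM in CCND2mut. It rose 2.83-fold in CCND2wt (edgeR adjusted p = 0.0048) and 3.66-fold in CCND2mut (edgeR adjusted p = 0.000382). Smc4, a core subunit of both condensins, had the smallest differences of the 6, from a Vec mean of 220.4 ± 63.8 CPM (SD, n = 3) to 327 ± 4.0 CPM in CCND2wt (edgeR adjusted p = 0.0852) and 392.0 ± 65.7 CPM in CCND2mut (edgeR adjusted p = 0.00964).

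Genes of anaphase and mitotic exit were split. Of 5, Cdc20 and Espl1 were called higher in CCND2wt, and Cdc20, Espl1 and Cdca3 in CCND2mut. Espl1, the gene of separase, the protease that cuts cohesin, was at 45.1, 15.1 and 20.6 CPM in Vec, at 110.5, 96.6 and 122 CPM in CCND2wt and at 211, 142 and 169 CPM in CCND2mut. It rose 4.07-fold in CCND2wt (edgeR adjusted p = 0.00971) and 6.45-fold in CCND2mut (edgeR adjusted p = 0.000722). Pttg1, the gene of securin, the inhibitor of separase, ran the other way. It was at 21.2, 18.7 and 17.4 CPM in Vec, at 15.5, 16.6 and 16.1 CPM in CCND2wt and at 14.4, 14.2 and 12.7 CPM in CCND2mut.

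The Pttg1 groups did not overlap and stood in the opposite order to those of Espl1. Pttg1 fell by 0.47 ± 0.14 on the log2 scale in CCND2mut (edgeR adjusted p = 0.0214), a call that was lost without Vec 1 (log2 -0.39 ± 0.15, edgeR adjusted p = 0.0619) and without CCND2mut 3 (log2 -0.41 ± 0.16, edgeR adjusted p = 0.0665), and was not called in CCND2wt (edgeR adjusted p = 0.242). Per length its Vec level of 29.3 ± 1.1 TPM ranked 13 of the 54 genes, whereas 27.96 ± 0.69 TPM in CCND2wt and 18.3 ± 0.88 TPM in CCND2mut ranked 51 and 52. Ube2c, the ubiquitin-conjugating enzyme of the anaphase promoting complex, had the widest Vec spread, at 87.3, 10.5 and 15.8 CPM. Its values were 100.3, 89.9 and 91.9 CPM in CCND2wt and 167, 96.7 and 138 CPM in CCND2mut, above every Vec library, and neither difference passed the threshold with Vec 1 included (edgeR adjusted p = 0.211 and 0.0569).

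All 3 cytokinesis genes rose in both comparisons. Racgap1, the partner of KIF23 in the centralspindlin complex, was at 74.0, 23.6 and 28.1 CPM in Vec, at 172, 169 and 170.4 CPM in CCND2wt and at 359, 191 and 255 CPM in CCND2mut, with no overlap between any groups. It rose 4.07-fold in CCND2wt (edgeR adjusted p = 0.0158) and 6.41-fold in CCND2mut (edgeR adjusted p = 0.0014). Ect2, which activates RhoA at the cleavage site, rose 3.01-fold (edgeR adjusted p = 0.0238) and 3.64-fold (edgeR adjusted p = 0.0041), and Anln, an actin-binding scaffold of the contractile ring, rose 3.79-fold (edgeR adjusted p = 0.0176) and 5.29-fold (edgeR adjusted p = 0.00212).

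Few of these genes were called between the 2 cyclin D2 groups. Between CCND2mut and CCND2wt, Gtse1 and Bub3 were called higher, 2 of 54 against 23.2% of all tested genes (47% were called in either direction). No gene was called lower by edgeR, against 23.8%; DESeq2 called 0 and limma-voom 1, and only the same 2 genes had an unadjusted edgeR p under 0.05. The median log2 fold change was 0.28 over the 54 genes and 0.02 over all tested genes, and 41 genes were above 0. This direction leaned on 1 library: without CCND2mut 1 the median was 0.134 and 10 genes changed sign. With replicate number added to the fit as a block, 16 genes changed sign. Groups did not overlap for 18 genes in the higher direction, against 30.9% of all tested genes, and for Nusap1, Spc25, Kif23 and Pttg1 in the lower direction, against 32.2%. Gtse1 was 2.34-fold higher (log2 1.23 ± 0.44, edgeR adjusted p = 0.0494) and Bub3 1.57-fold higher (log2 0.65 ± 0.20, edgeR adjusted p = 0.0283).

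**Figure D3:**
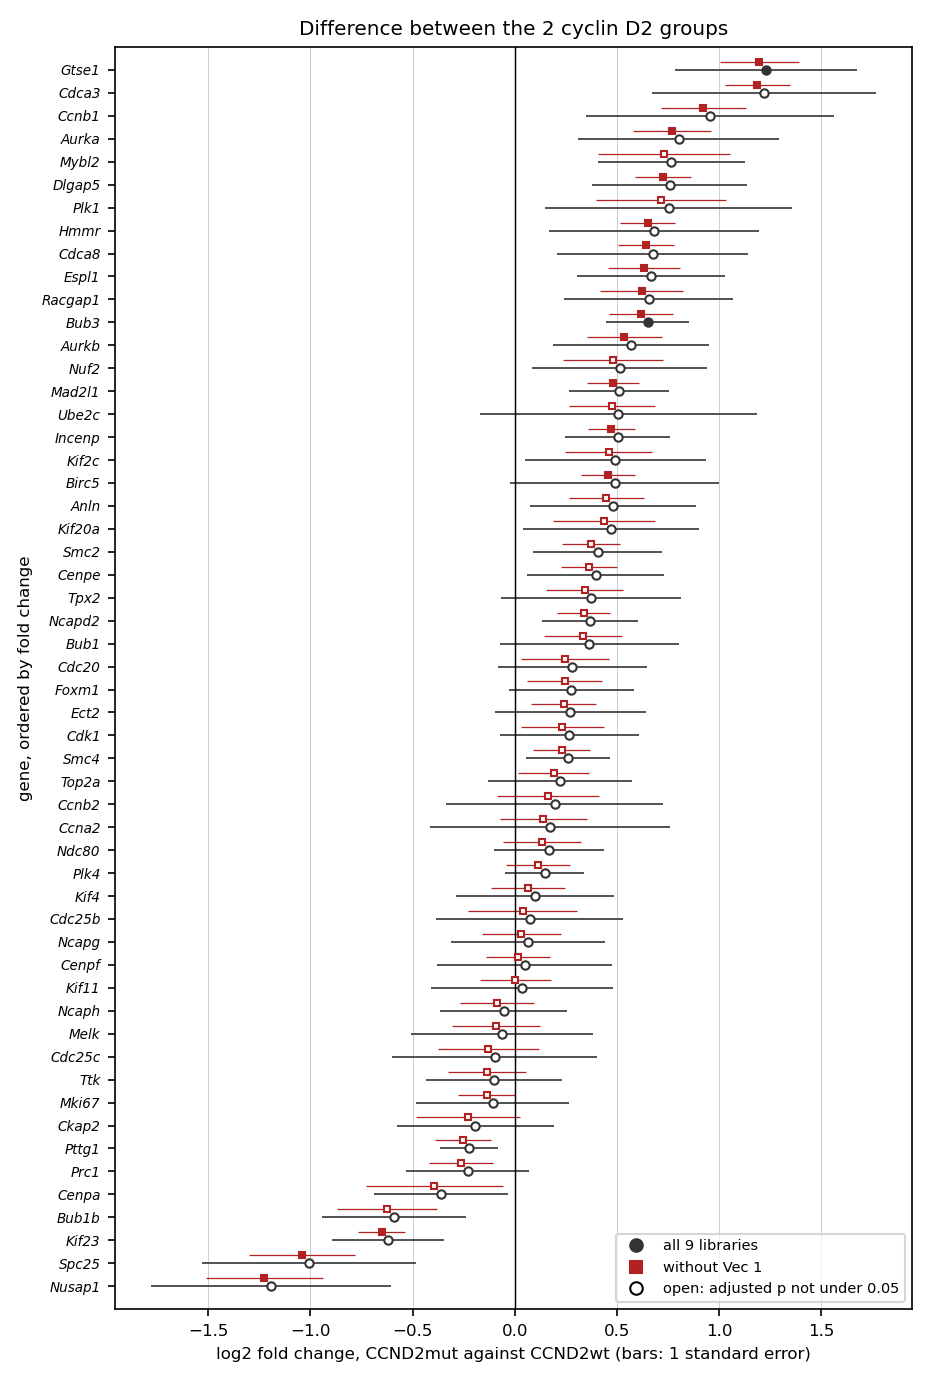
Log2 fold change of each gene in CCND2mut against CCND2wt (horizontal axis, bars of 1 standard error), with all 9 libraries (circles) and without Vec 1 (squares), filled where the adjusted p is under 0.05. Estimates stay close to each other while the bars shorten without Vec 1, and the calls go from 2 to 17.

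The calls between the cyclin D2 groups depended on a library that is in neither. All 9 libraries share 1 estimate of the spread, and Vec 1 widened it for these genes: without it, the standard error of Gtse1 went from 0.44 to 0.19 while its log2 fold change went from 1.23 to 1.196. Without Vec 1, 14 of the 54 genes were called higher, a share near the 23.6% of all genes tested in that fit, with Cdca3 at 1.19 ± 0.16 (edgeR adjusted p = 0.00065), Dlgap5 at 0.73 ± 0.14 (edgeR adjusted p = 0.0032), Ccnb1 at 0.92 ± 0.21 (edgeR adjusted p = 0.00784) and Incenp at 0.47 ± 0.11 (edgeR adjusted p = 0.0102). All 4 chromosomal passenger genes were among the 14. Kif23 at -0.65 ± 0.12 (edgeR adjusted p = 0.00251), Nusap1 at -1.23 ± 0.29 (edgeR adjusted p = 0.00919) and Spc25 at -1.04 ± 0.26 (edgeR adjusted p = 0.0118) were called lower, 3 of 54 against 24.8%. No gene was called higher when any CCND2wt library, CCND2mut 1 or CCND2mut 3 was left out (edgeR).

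The genes that differed most between the cyclin D2 groups were set beside their neighbours on the chromosome, a comparison chosen after their values were seen. Nusap1 (chr2:119618298-119651244, mm10) and Spc25 (chr2:69193895-69206194) lie on chromosome 2 in a stretch where most genes were lower in CCND2mut. The other tested genes within 5 Mb had a median log2 fold change of -0.77 around Nusap1, with 62 of 72 below 0, and of -0.85 around Spc25, with 27 of 31 below 0. Bub1b (chr2:118598211-118641591), a checkpoint gene near Nusap1, was at -0.59 ± 0.35 (edgeR adjusted p = 0.203), with 66 of 76 neighbours below 0. In 10 Mb bins the median of genes chosen the same way was between -0.37 and -0.91 from 40 to 120 Mb of chromosome 2. The other 7 mitotic genes of that chromosome, from Bub1 and Ncaph to Aurka, lay in bins with medians between -0.27 and 0.34.

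Chromosomes 15 and 6 showed the reverse. The 436 tested genes of chromosome 15 with a mean of at least 5 CPM had a median log2 fold change of 0.70 in CCND2mut against CCND2wt. Gtse1 (chr15:85859745-85876573) at 1.23, Racgap1 at 0.66 and Espl1 at 0.66 lie there. Chromosome 6 had a median of 0.42 over 542 genes at that level, with Cdca3 at 1.22, Mad2l1 at 0.51, Ncapd2 at 0.37 and Foxm1 at 0.28. Each CCND2mut library showed it, with a chromosome 15 median of 0.65, 0.62 and 0.68 above the CCND2wt mean and a chromosome 6 median of 0.33, 0.45 and 0.44, while the medians of the Vec and CCND2wt libraries lay between -0.09 and 0.01.

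Over the whole list, the 3 genes whose neighbours had a median at or below -0.5 were all below 0 and the 7 genes whose neighbours had a median at or above 0.5 were all above 0. Several of these genes share neighbours, such as Bub1b with Nusap1, Cdca3 with Ncapd2 and Espl1 with Racgap1, so they are not separate cases. Of the other 44 genes, 34 were above 0, with a median of 0.27. Kif23 on chromosome 9 was lower in CCND2mut although its 74 neighbours had a median of 0.11, and Bub3 on chromosome 7 was higher with the median of its 86 neighbours at -0.004. How far position on the chromosome sets these differences was not tested, and copy number was not measured.

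**Figure D4:**
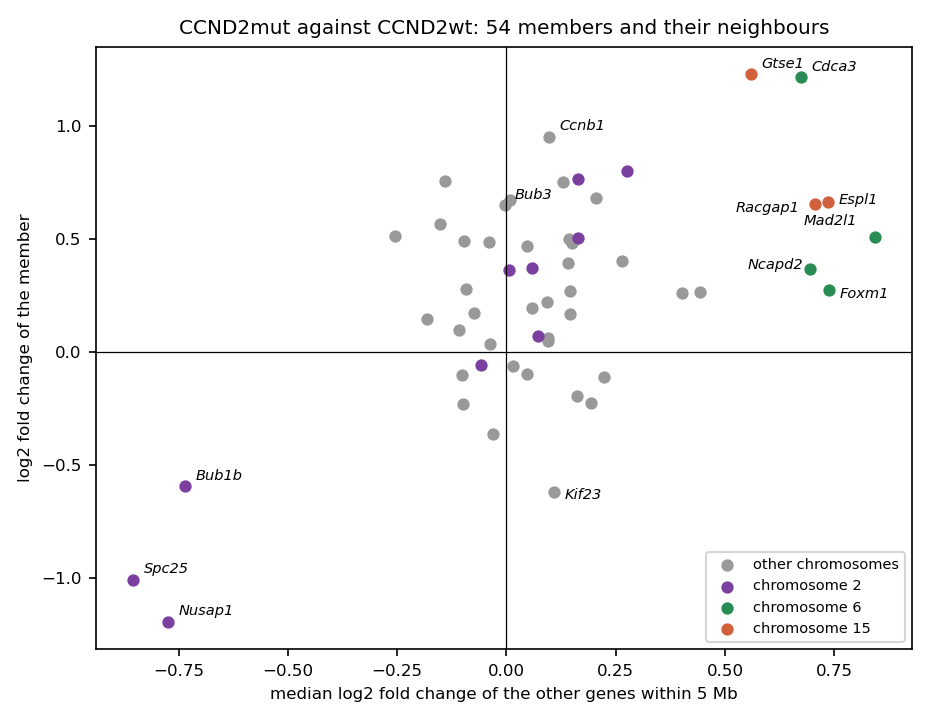
Log2 fold change of each of the 54 genes in CCND2mut against CCND2wt (vertical axis), coloured by chromosome. The horizontal axis is the median of the other tested genes within 5 Mb that had a mean of at least 5 CPM. Nusap1, Spc25 and Bub1b sit at the lower left with neighbours between -0.74 and -0.85, and the genes of chromosomes 6 and 15 at the upper right with neighbours between 0.56 and 0.84.

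The same stretch of chromosome 2 holds a pair of other kinetochore and centromere genes, named here after their values were seen. Knl1, the kinetochore scaffold that recruits BUB proteins, was at 31.1, 9.10 and 10.9 CPM in Vec, at 67.7, 62.1 and 70.3 CPM in CCND2wt and at 42.6, 22.6 and 29.1 CPM in CCND2mut. Its log2 fold change in CCND2mut against CCND2wt was -1.09 ± 0.44 (edgeR adjusted p = 0.0748). Oip5, a factor for loading CENPA on centromeres, was at -0.94 ± 0.52 (edgeR adjusted p = 0.167). Oip5 overlaps Nusap1 on the other strand, and since no strand setting is given, reads of the overlap cannot be told apart. The 35 other tested genes from Bub1b to Nusap1 and within 1 Mb of them, at a mean of at least 5 CPM, had a median of -0.77. Of these, 31 were below 0, 18 called lower and 1 called higher. Over all tested genes, 23.8% were called lower and 23.2% higher in CCND2mut against CCND2wt.

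Mitotic genes were then set beside 41 genes of DNA replication, which act earlier in the cell cycle. Replication genes were also higher in both groups, 31 of 41 in CCND2wt, against 9.71% of all tested genes, and 35 of 41 in CCND2mut, against 24.9%. In CCND2wt 0 were lower, against 9.05%, and in CCND2mut 3, against 26.9%. Their median log2 fold changes of 1.07 and 1.23 were smaller than the 1.71 and 1.996 of the mitotic genes. The summed level of the replication genes was 2356, 1883 and 2092 TPM in Vec, 4300.1, 4046 and 4370.2 TPM in CCND2wt and 3681, 2531 and 3718 TPM in CCND2mut. In TPM every CCND2mut library was below every CCND2wt library. In CPM the sums overlapped, at 4935.9 to 5114.7 in CCND2wt and 4210.5 to 5734.6 in CCND2mut. The ratio of summed mitotic to summed replication TPM was 0.910, 0.483 and 0.475 in Vec, 1.03, 1.01 and 1.03 in CCND2wt and 1.38, 1.14 and 1.19 in CCND2mut. The 3 groups did not overlap in this ratio, in contrast to the mitotic sum itself, and Vec 1 lay nearest to CCND2wt. Among the 41 genes, Pole, which encodes the leading-strand polymerase epsilon, rose by 1.61 ± 0.13 on the log2 scale in CCND2wt (edgeR adjusted p = 0.000263), Mcm2, a subunit of the replicative helicase, rose by 1.81 ± 0.16 in CCND2mut (edgeR adjusted p = 7.92e-05), and Chaf1b, a subunit of the histone chaperone CAF-1, was at log2 -2.19 ± 0.23 in CCND2mut against CCND2wt (edgeR adjusted p = 0.000161).

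**Figure D5:**
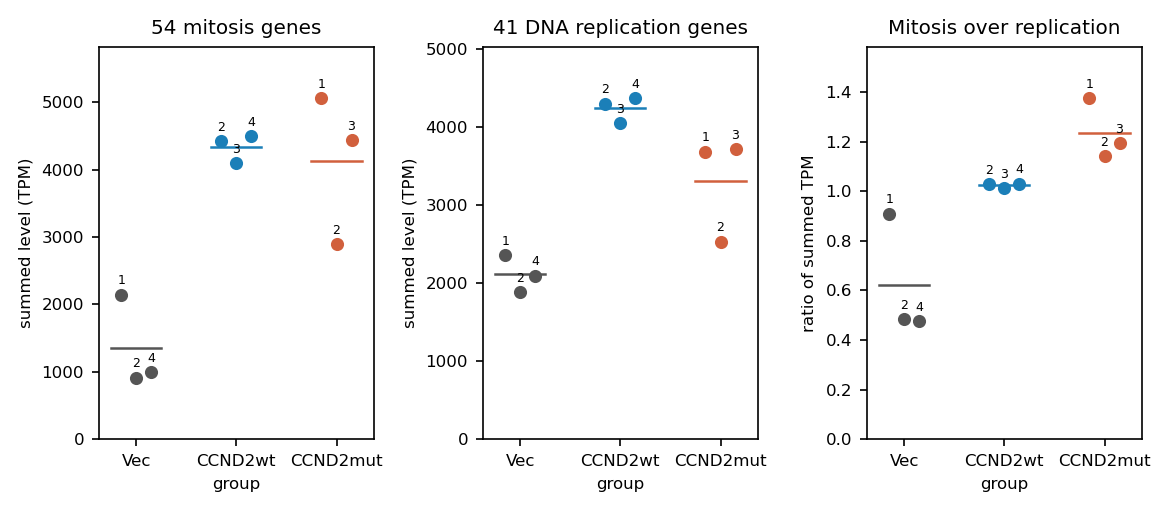
Summed level of the 54 mitotic genes (left, TPM) and of 41 DNA replication genes (middle, TPM) and the ratio of the mitotic to the replication sum (right), with 1 point per library, numbered by replicate, and lines at group means. Vec lies lowest in all 3 panels, and the ratio separates CCND2mut, at 1.14 to 1.38, from CCND2wt, at 1.01 to 1.03. The middle panel puts CCND2mut below CCND2wt in TPM, whereas the CPM sums of these groups overlap.

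Other genes of the mitotic machinery, 123 in 8 further lists, gave 74 called higher and 0 lower in CCND2wt against Vec by edgeR, against 9.71% and 9.05% of all tested genes. In CCND2mut 81 were higher and 8 lower, against 24.9% and 26.9%. Outer kinetochore and checkpoint genes stood at 16 of 17 higher in CCND2wt and 15 of 17 in CCND2mut, with Kntc1, a checkpoint protein of kinetochores, at log2 2.12 ± 0.20 and 2.09 ± 0.20 (edgeR adjusted p = 0.000718 and 0.000105). Inner centromere genes stood at 14 and 13 of 17, with Cenpw at 1.54 ± 0.14 and 2.199 ± 0.14 (edgeR adjusted p = 0.000569 and 2.29e-05). Subunits and regulators of the anaphase promoting complex stood at 3 of 16 higher in CCND2wt and at 6 higher and 2 lower in CCND2mut, close to the 51.8% of all tested genes called there, with medians of 0.27 and 0.24. Among them Anapc15, a subunit that helps release the checkpoint complex, rose by 1.35 ± 0.20 and 1.46 ± 0.20 on the log2 scale (edgeR adjusted p = 0.00341 and 0.000475). Cohesin genes stood at 6 of 15 higher in both, with 0 and 1 lower, where 9.71% and 24.9% of all tested genes were higher.

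Of 11 MuvB and DREAM genes, which regulate mitotic transcription, 2 were called higher in CCND2wt, against 9.71% of all tested genes. In CCND2mut 5 were higher and 4 lower, where 24.9% of all tested genes were higher and 26.9% lower. E2f5, a repressor E2F of the DREAM complex, was at 11.2, 11.0 and 14.6 CPM in Vec, at 8.41, 8.55 and 7.65 CPM in CCND2wt and at 2.79, 2.60 and 2.19 CPM in CCND2mut, and fell by 2.27 ± 0.22 on the log2 scale in CCND2mut against Vec (edgeR adjusted p = 0.000101). Cks2, a small CDK-binding subunit, was at 60.2, 52.8 and 41.9 CPM in Vec, at 72.4, 80.2 and 68.1 CPM in CCND2wt and at 182, 153 and 134 CPM in CCND2mut, and was higher in CCND2mut than in CCND2wt by 1.09 ± 0.16 (edgeR adjusted p = 0.000879). Of 13 genes of cell cycle exit, 2 were lower in CCND2wt, where 9.05% of all tested genes were lower. In CCND2mut 3 were higher and 5 lower, counts near the 24.9% and 26.9% of all tested genes. Mxd4, a MAX partner that opposes MYC, was lower in both (log2 -1.34 ± 0.09 and -0.76 ± 0.09, edgeR adjusted p = 0.000172 and 0.000291).

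Within Vec and CCND2mut most of the 54 genes had the same highest library. Vec 1 was the highest Vec library for 53 of them, at a median of 2.75 times the mean of Vec 2 and Vec 4, from 1.05 for Cenpa to 6.63 for Ube2c, while the median over all tested genes was 0.991. CCND2mut 1 was the highest of its group for 52 genes and CCND2mut 2 the lowest for 52. In CCND2wt the highest library was replicate 2 for 21 genes, replicate 3 for 9 and replicate 4 for 24, and replicate 3 was the lowest for 39. The median coefficient of variation of the 54 genes was 0.641 in Vec, 0.0402 in CCND2wt and 0.262 in CCND2mut, against 0.203, 0.0847 and 0.227 over all tested genes. Their median thus lay above that of all tested genes in Vec and below it in CCND2wt. Genes were not matched for level, so how far level sets this difference was not tested.

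Ranked per length, Smc4 had the highest level in Vec at 129 ± 29 TPM (SD, n = 3), followed by Mki67 at 90.2 ± 52 TPM, and Ttk the lowest at 4.53 ± 2.1 TPM. In CCND2wt the order began with Mki67 at 247 ± 13, Ccnb2 at 229 ± 7.4, Smc4 at 219 ± 7.2, Cdc20 at 217 ± 15 and Ncapd2 at 208 ± 16 TPM and ended with Cenpf at 22.7 ± 0.71 TPM. In CCND2mut Ncapd2 at 206 ± 35, Cdc20 at 203 ± 74, Smc4 at 202 ± 42 and Ccnb2 at 202 ± 72 TPM led, and these neighbours differed by less than their spread. Gene models of the 54 genes span 1531 to 15433 bases, with a median of 4869, against 3721 for all tested genes, and they lie on 18 chromosomes, with 10 on chromosome 2.

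Some counts can hold reads of a second gene. A gene on the other strand overlaps 20 of the 54 genes, and for 9 of them (Ccna2, Cdc25b, Cdca8, Kif20a, Kif4, Nusap1, Prc1, Ncapg and Cdc20) the partner has at least 10% of the gene's own counts. For Kif20a the partner has more counts than the gene itself. Reads within the overlaps were not counted apart, so how far these values are affected is not known. Pseudogene copies held 167 counts for Ccnb1 and 155 for Ccnb2 over all libraries and 0 for Kif4.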

How the data were processed

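RNA from mouse bone marrow cells was extracted with TRIzol and made into libraries with an NEBNext Ultra kit, per the labels' protocols. The authors deposited 1 table of unnormalized counts of reads for each gene and library. The submitters' processing notes name CASAVA 1.8, fastp, HISAT2 2.0.5, featureCounts 1.5.0-p3, DESeq2 1.20.0 and the build mm10, while no annotation release or strand setting is named in the sources used here. Gene lengths and coordinates are the deposited file's own.

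Genes were filtered with filterByExpr, leaving 15660 of 54532. Counts were tested with edgeR 4.0.16 in R 4.3.3 (quasi-likelihood test, robust fit, trimmed mean of M values, 3 groups, 9 libraries, 6 residual degrees of freedom), with Benjamini-Hochberg adjustment over all tested genes and a threshold of 0.05. The scripts were tested on simulated data. Standard errors are the log2 fold change divided by the square root of F. Samples were grouped by their titles. TPM were computed from the counts and the deposited lengths. DESeq2 1.42.0, limma 3.58.1, other scalings and filters, a replicate block and the removal of each library were alternatives.

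The 54 members and all gene lists were chosen with earlier results of these data known. Genes named with values are, in each role and comparison, the member with the smallest adjusted p, the 3 highest and 3 lowest fold changes, and members called against the majority; from each other list, the gene with the smallest adjusted p. Ccna2, Cdc25b, Bub1b, Mki67, Ube2c, Nuf2, Dlgap5, Cdc20, Ccnb2, Cenpf, Ect2, Anln, Knl1 and Oip5 fall outside that rule and were named after their values were seen. The same holds for the marker genes Ctsg, Tpsab1, Mecom and Hoxa9. Promoter motifs were not analysed here.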

Additional observations from a re-analysis of the deposited data

How the results depend on the processing

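Against Vec, over 20 alternatives, the 54 genes kept their direction except Nusap1 in CCND2mut, at log2 -0.041 without Vec 2 (edgeR adjusted p = 0.954; 0.00736 to 0.962 over all alternatives). Between the cyclin D2 groups, 42 values of single genes changed sign, and the cause was not tested. Genes called higher in CCND2wt against Vec numbered 23 with no filter on low counts, which tests more genes, and 0 with the CCND2wt libraries summed to 1 sample; leaving out 1 library gave 13 to 52, with medians of 1.47 to 2.53. Leaving out Vec 1 together with CCND2mut 1, chosen after seeing the data, gave a median of 2.53. Over all tested genes the counts in CCND2wt against Vec were 953 higher and 683 lower with the replicate block, 26 and 13 with the summed sample and 615 to 1958 and 404 to 1859 with 1 library left out, while DESeq2 gave 2194 lower and the removal of Vec 1 and CCND2mut 1 gave 2390 higher and 2080 lower. In CCND2mut against Vec, 43 to 52 genes were higher and 0 to 1 lower with 1 library left out, with medians of 1.71 to 2.78. Pttg1 was no longer called lower, leaving 0 by edgeR, with no filter, with only the 2 groups compared, with the block, with the summed sample, without CCND2mut 3, without Vec 1, and without Vec 1 and CCND2mut 1. Between CCND2mut and CCND2wt, 1 gene was higher with relative log expression size factors, with no filter and with the block, 15 with only the 2 groups compared, 4 with limma-voom, 0 with the summed sample and 12 without Vec 1 and CCND2mut 1, and 0 to 14 with 1 library left out. Lower calls there were 3 with only the 2 groups compared, 6 with the block, 1 with limma-voom, 6 without Vec 1 and CCND2mut 1, and 0 to 3 with 1 library left out. The median of 0.28 became -0.03 with the block and 0.13 to 0.42 with 1 library left out, and with the summed sample 803 of all genes were higher and 1575 lower. Scaling without genes of chromosomes 6 and 15, also added after seeing the data, changed no count by more than 1.5 times. The labels do not say whether replicate numbers pair the samples. Same-numbered libraries deviated with correlations of -0.114 to 0.204 over 10825 genes, and differently numbered ones with -0.28 to 0.345. These values do not settle whether the samples were paired. The block gave 49 genes higher in CCND2wt and 49 in CCND2mut against Vec.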
